A study of Mus musculus with 44 samples.

Results

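The 7 genes described here encode neurotrophins and their receptors in the mouse. *Bdnf* and *Ntf3* encode the ligands BDNF and NT-3, *Ntrk2* and *Ntrk3* the receptor tyrosine kinases TrkB and TrkC, *Ngfr* the p75 receptor, and *Sort1* and *Sorcs1* receptors of the sortilin family. The genes were chosen by symbol and not by a measured value, although earlier results of these data were known. Each was matched to 1 of the 17158 RefSeq transcripts listed in the per-sample files, of which 17010 carried a symbol.

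Neurotrophins are made as precursors that are cut to mature, secreted dimers. Mature BDNF binds TrkB and NT-3 binds TrkC, and both receptors signal through the Ras–MAPK, PI3K and phospholipase C pathways, whereas the precursors bind p75 together with sortilin. *Bdnf* is transcribed from several alternative start sites, some of which respond to neuronal activity, and its product is known for its part in synaptic plasticity in cortex and hippocampus.

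The study asked how stimulation, poly(A) tails and miRNAs relate to translational efficiency (TE) in neurons. It measured mRNA by RNA-seq, ribosome-protected fragments (RPFs) by ribosome profiling, and poly(A) tails by TAIL-seq or PAL-seq v2, which also count mRNAs through tags at their 3′ ends. Cultures were grown from the pooled cortices of newborn mice with a pulse of ara-C, a poison of dividing cells. At 14 days in vitro (DIV14) they were unstimulated, given BDNF or a mix of glutamate and glycine (glu/gly), or transduced with a lentivirus. For the tail measurements, harvest followed the stimulus by 30 min. The lentivirus expressed EGFP from a synapsin promoter, which is neuronal, either alone (GFP) or with miR-1 or miR-155 in the 3′ UTR of the EGFP mRNA, and RNA was taken from the whole culture. At DIV10 the cultures were unstimulated or had received KCl for 10 or 30 min. The paper states that 6 of the cultures were prepared in batches of 3, without naming the cultures of a batch. The GFP and untransduced DIV14 cultures may thus differ in batch, which cannot be told apart from the virus. The tissues were an adult hippocampus and an adult cortex of male mice and embryonic hippocampus. RNA of the hippocampi was poly(A)-selected, RNA of the adult cortex and of 6 cultures was depleted of rRNA, and this step is not stated for the other 3 cultures. Visual cortex came from 8 mice housed in the dark, of which 4 were exposed to light for 1 h before dissection and 4 were not. The mice were of the C57BL6J strain, and no transgene is given.

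No culture or tissue was sequenced in replicate, so values from them carry no replicate error, and every interval given for them covers counting error only. Counts are given as CPM, which means scaled to 1000000 counts on genes in the same library. RNA-seq libraries held 448022 to 7689624 reads on genes, RPF libraries 817114 to 23212489, tail libraries of cultures and tissues 86841 to 1057812 tags, and those of the visual cortex 1233538 to 4812273 tags, with dark mouse 2 the deepest. Summed over 5 neuronal markers, the RNA-seq libraries held 2632 to 4008 CPM, and each marker was detected in each of them. Astrocyte markers (*Gfap*, *Aqp4*, *Aldh1l1*, *Slc1a3* and *Gja1*) were also all detected and summed to 742 to 1687 CPM in the cultures. The unstimulated DIV14 culture, the control for BDNF, glu/gly and GFP, stood above the other DIV14 cultures in astrocyte markers, with 1513 CPM against 742 to 1194, and in markers of dividing or progenitor cells, with 120 CPM against 12.8 to 33.4. The part of these markers in the comparisons with that control was not tested. In bulk samples such as these, fewer cells of a type and less RNA per cell cannot be told apart.

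Stimulation was checked on 4 immediate early genes. In the visual cortex *Egr1* was 8.87-fold, *Arc* 9.81-fold and *Npas4* 7.15-fold higher after light, and *Fos* went from 58.5 ± 65.5 to 756 ± 222 CPM (SD, n = 4 each), each with an adjusted p under 0.05 in edgeR's quasi-likelihood test. Dark mouse 4 held the highest *Fos* of the dark group. In RNA-seq, *Fos* was 33.6-fold higher with BDNF, 21.5-fold with glu/gly, 3.22-fold after 10 min of KCl and 18.3-fold after 30 min.

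The reads were counted on 1 transcript per gene, over the open reading frame without its first 50 nt, and the transcript chosen limits what the values mean. All 12 RefSeq transcripts of *Bdnf* share the whole counted reading frame and the 3′ end of the listed one (chr2:109674700-109727043, GRCm38.p6, + strand), so neither reads nor tags could be assigned to a start site. For *Ntrk2* (chr13:58807697-59133970, + strand) the listed transcript encodes the full-length receptor. The RefSeq form with a shorter reading frame, which lacks the kinase, contains 55.6% of the counted reading frame and ends at another 3′ end. For *Ntrk3* (chr7:78300690-78577838, − strand) the listed transcript is the form with the shorter reading frame, without the kinase, and 85.8% of its counted bases also lie in the longer form. Reads of *Ntrk2* and *Ntrk3* were therefore not specific to 1 receptor form, whereas the 3′ ends of the forms differ. The listed transcript of *Ntf3* lies at chr6:126101412-126166744 (− strand), that of *Ngfr* at chr11:95568818-95587698 (− strand), that of *Sort1* at chr3:108284064-108361519 (+ strand) and that of *Sorcs1* at chr19:50147660-50678646 (− strand).

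Because a culture expressed miR-155, its matches in the 3′ UTRs of the genes are shown first. The mature miRNA, from RefSeq, is printed with its seed, bases 2 to 8, in capitals, and the sites with the bases that match it in capitals.
mmu-miR-155-5p: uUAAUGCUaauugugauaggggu
*Ntrk2*, 8-mer, chr13:59131126-59131152 (+): agatttcagAGCATTAAagagtatttg
*Sort1*, 8-mer, chr3:108360779-108360805 (+): aagaattggAGCATTAActtgaaattg
*Bdnf*, 7-mer-A1, chr2:109726910-109726936 (+): gaaaaaattgGCATTAAaacttaacca
*Sorcs1*, 7-mer-A1, chr19:50149795-50149821 (−): gatggtttgtGCATTAAcaaaaatctt
An 8-mer, AGCATTAA, matches the seed and has an A opposite base 1 of the miRNA, and a 7-mer-A1, GCATTAA, lacks the outermost seed match; an 8-mer was not counted again as the shorter site. *Ntrk2* and *Sort1* each held 1 8-mer and 1 7-mer-A1 in the 3′ UTR, *Bdnf* and *Sorcs1* 1 7-mer-A1 each, and *Ntf3*, *Ntrk3* and *Ngfr* none of these. Of 16888 listed transcripts with a 3′ UTR, 2.85% held the 8-mer. A match of letters does not show that the site is bound. Sites of miR-1, which another culture expressed, were not searched.

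The windows from 250 bases before to 50 bases after RefSeq starts were searched for the CREB motif TGACGT on both strands. Such windows were at hand for 7 starts of *Bdnf* and for 12 starts of 5 of the genes in all. The motif, as its reverse complement ACGTCA, was present at 1 of the 12, a *Bdnf* start at chr2:109692436, and its first base lies 36 bases before that start. By comparison, 7.51% of 32851 windows of the same length held the motif. It is shown in capitals with its flanks. Whether it had a part in any change of *Bdnf* was not tested, and tags could not be assigned to a start site.
*Bdnf* start region, chr2:109692388-109692417 (+): atatgacagctcACGTCAaggcagcgtgga

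Per kb of the counted reading frame, *Ntrk2* mRNA was the most abundant of the 7 in 10 of 12 RNA-seq libraries and *Ngfr* mRNA the least abundant in 11. *Sort1* ranked highest in adult hippocampus and *Ntrk3* in embryonic hippocampus. The plot of RNA-seq levels shows this order and the counting error of each level.

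**Figure D1:**
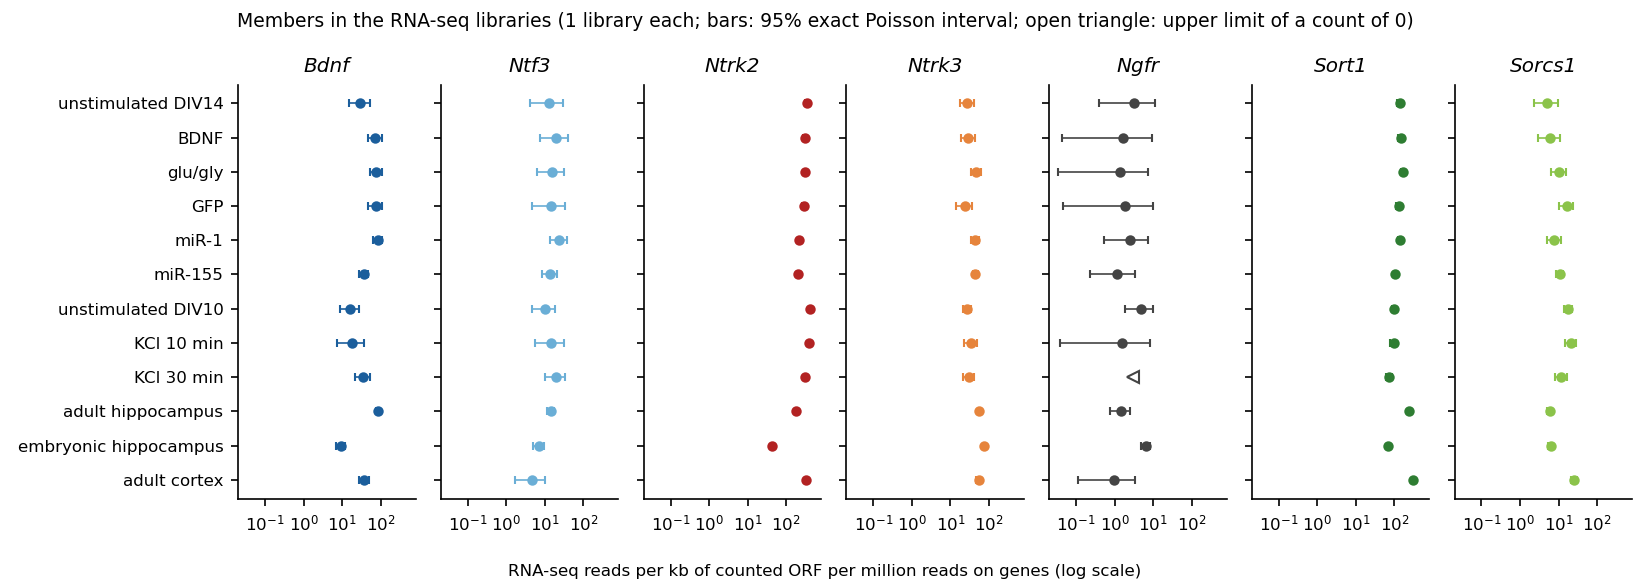
RNA-seq level of each gene (CPM per kb of counted reading frame, log axis) in the 12 RNA-seq libraries, 1 library each, with 95% exact Poisson intervals; the open triangle is the limit that a count of 0 allows, set at 3 reads. *Ntrk2* ran from 43.8 in embryonic hippocampus to 425 in unstimulated DIV10 culture, and the intervals of *Ngfr*, with 0 to 61 reads, were the widest.

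Ordered by level, most neighbouring libraries did not differ beyond counting error. For *Bdnf* the highest 5 were the miR-1 culture (84.1 CPM per kb), adult hippocampus (83.1), glu/gly (75.8), GFP (74.0) and BDNF (72.0), and the only step past counting error led from these to adult cortex (37.2). *Ntrk3* had its only such step between embryonic hippocampus (72.7 CPM per kb) and adult hippocampus (55.6), and *Ntf3*, *Ngfr* and *Sorcs1* had none. The better counted *Ntrk2* and *Sort1* had 4 such steps each. For *Ntrk2* they include those from GFP (296) to miR-1 (220) and from adult hippocampus (180) to embryonic hippocampus (43.8), and for *Sort1* those from adult cortex (296) to adult hippocampus (241) and on to glu/gly (170).

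*Bdnf*, the ligand of TrkB, rose after light in the visual cortex and was the only one of the 6 genes tested to do so. Its PAL-seq level was 13.7, 22.9, 25.0 and 18.5 CPM in dark mice 1 to 4. It was 56.7, 55.5, 69.0 and 58.8 in light mice 1 to 4. Every light mouse lay above every dark mouse. The mean went from 20 ± 5.0 to 60.0 ± 6.13 CPM (SD, n = 4 each), a 2.99-fold rise with a log2 fold change of 1.58 (SE 0.18, adjusted p = 3.57e-06, edgeR). An exact two-sided permutation test over the 8 mice gave p = 0.0286, the smallest p that 4 against 4 allows. Of all genes tested, 1.34% passed, 116 of them higher and 12 lower.

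The poly(A) tail of *Bdnf* averaged 78.1, 101.6, 78.3 and 57.2 nt in dark mice 1 to 4 and 92.4, 142.5, 121.4 and 99.1 nt in light mice 1 to 4. With 20 tags in dark mouse 1, *Bdnf* fell short of the minimum of 50 tags per library and entered a test only at a minimum of 20. There the mean was 78.8 ± 18.2 nt in the dark and 113.9 ± 22.8 nt in the light (SD, n = 4 each), and the groups overlapped. The difference of 35.1 nt (SE 8.4) did not pass the test (adjusted p = 0.0830, limma, over 6807 genes). The median tail of the libraries ran from 77.5 to 97.5 nt. With each library centred on its own median the difference was 30.9 nt (SE 9.3, adjusted p = 0.361, limma).

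In the RNA-seq of the cultures, *Bdnf* was higher after 3 of the 4 stimuli, on few reads. In the unstimulated DIV14 culture *Bdnf* had 11 reads (21.6 CPM), against 25 reads (52.1 CPM) with BDNF and 33 reads (54.9 CPM) with glu/gly. The ratios were 2.41 (95% interval 1.14 to 5.43) and 2.54 (1.25 to 5.56). The GFP culture, given neither stimulus, stood at a like level, 53.6 CPM on 24 reads. In the DIV10 cultures it had 14 reads (11.8 CPM) without KCl, 7 (13.2 CPM) after 10 min and 20 (24.9 CPM) after 30 min, with ratios of 1.12 (0.383 to 2.97) and 2.12 (1.02 to 4.53). The latter was 1.5 (0.720 to 3.21) with the RPM values of the deposited files, which are scaled to another total.

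RPFs and 3′-end tags of *Bdnf* were more numerous than its RNA-seq reads and gave smaller ratios. *Bdnf* RPFs numbered 115 unstimulated, 119 with BDNF and 76 with glu/gly, with ratios in CPM of 1.21 (0.931 to 1.58) and 1.02 (0.753 to 1.37). After KCl the RPF ratio was 0.901 (0.636 to 1.26) at 10 min and 1.57 (1.10 to 2.21) at 30 min. TAIL-seq tags gave 1.44 (1.02 to 2.07) for BDNF, 1.05 (0.692 to 1.58) for glu/gly and 1.12 (0.636 to 1.99) for 30 min of KCl. For BDNF and for glu/gly the RNA-seq ratios lay above the intervals of both other assays. The intervals of the RNA-seq ratios were wide and overlapped with those of both assays. After 30 min of KCl the interval of the tags reached down below 1.

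The mean tail of *Bdnf* in the DIV14 cultures was 108.6 nt unstimulated (56 tags), 105.4 nt with BDNF (82 tags) and 106.1 nt with glu/gly (45 tags). These differences of −3.2 and −2.4 nt were near the median differences over all genes, −1.0 and −4.7 nt.

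Among the lentivirus cultures *Bdnf* was low with miR-155. RNA-seq gave 53.6 CPM in the GFP culture (24 reads), 60.9 CPM for miR-1 (59 reads) and 26.1 CPM for miR-155 (55 reads). The miR-155 culture was at 0.486 of the GFP culture (0.296 to 0.821), and the TAIL-seq tags gave 0.415 (0.237 to 0.710). The miR-1 culture was at 1.14 (0.697 to 1.91). The GFP culture itself stood above the untransduced culture, 2.48-fold in RNA-seq (1.17 to 5.60) and 2.05-fold in tags (1.35 to 3.11), so that the level with miR-155, 36.0 CPM per kb, was close to that without virus, 29.9 CPM per kb, and their intervals overlapped. *Fos* was also higher in the GFP culture than in the untransduced culture, 3.24-fold (1.32 to 9.08), but it was not lower in the miRNA cultures. Its ratio to GFP was 1.80 (1.09 to 3.11) with miR-1 and 1.12 (0.693 to 1.92) with miR-155. Markers of inhibitory neurons summed to 1259 CPM with GFP, 890 CPM without virus, 755 CPM with miR-1 and 865 CPM with miR-155. Those of excitatory neurons went the other way, with 279, 346, 454 and 389 CPM in the same order. The part of these in the result was not tested.

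*Bdnf* mRNA differed most between the hippocampi. Adult hippocampus had 438 reads (60.2 CPM) and embryonic hippocampus 52 (6.76 CPM), a ratio of 8.90 (6.66 to 12.1). RPFs differed less, 1298 against 502, a ratio of 2.77, so that log2 TE was 1.68 (1.27 to 2.09) in the embryo, where *Bdnf* was under the cutoff of 10 RPM, and −0.01 (−0.16 to 0.15) in the adult. Log2 TE is the log2 ratio of RPFs to RNA-seq reads, both in CPM, and the cutoff applies to the deposited RPM. Adult cortex had 46 reads (26.9 CPM), 0.447 of adult hippocampus (0.323 to 0.607), and 0.676 of it in RPFs. Markers of excitatory neurons, which include *Camk2a*, summed to 5208 CPM in adult hippocampus, 581 CPM in the embryo and 2475 CPM in adult cortex, and their part was not tested.

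*Ntf3*, which encodes NT-3, the ligand of TrkC, was near the limit of detection in most libraries. In the visual cortex its level in CPM was 8.89, 7.48, 10.1 and 15.3 in dark mice 1 to 4 and 4.86, 8.94, 5.13 and 7.13 in light mice 1 to 4. The groups overlapped, and the difference of −0.57 on the log2 scale (SE 0.35) did not pass the test (adjusted p = 0.675, edgeR). In RNA-seq *Ntf3* had 5 to 22 reads in each culture and 6 in adult cortex. With glu/gly its RPFs were 11 against 39, a ratio of 0.435 (0.201 to 0.866), whereas its tags were 12 against 17, a ratio of 0.921 (0.401 to 2.05). Adult hippocampus held 79 reads against 41 in the embryo, a ratio of 2.04 (1.38 to 3.04), and RPFs gave 1.88.

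*Ntrk2*, which encodes the BDNF receptor TrkB, gave no detectable change after light. Its level was 259, 326, 311 and 275 CPM in dark mice 1 to 4 and 249, 301, 290 and 316 CPM in light mice 1 to 4. The groups overlapped throughout, and the log2 fold change was 0.00 (SE 0.10, adjusted p = 0.997, edgeR). Its tail was 87.9 ± 9.3 nt in the dark and 89.2 ± 7.1 nt in the light (SD, n = 4 each), a difference of 1.3 nt (SE 6.7, adjusted p = 0.999, limma). The median difference over all 4321 genes tested was 3.75 nt, and 0.231% of them passed, all 10 with longer tails.

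In the stimulated cultures *Ntrk2* stayed within 1.5-fold of its control in RNA-seq, RPFs and tags when scaled to counts on genes. RNA-seq gave 831 CPM unstimulated, 751 CPM after BDNF and 760 CPM after glu/gly at DIV14. At DIV10 it gave 1028 CPM unstimulated, 953 CPM after 10 min of KCl and 751 CPM after 30 min. The largest departure, 0.731 after 30 min of KCl (0.662 to 0.806), was not seen in RPFs, 0.995 (0.959 to 1.03), nor in TAIL-seq tags, 1.21 (0.986 to 1.49), but with the RPM values of the deposited files it was 0.517 (0.468 to 0.570), past 1.5-fold. Log2 TE of *Ntrk2* was therefore 0.45 higher after 30 min of KCl (0.30 to 0.60), a 1.36-fold difference. Its tail was 121.8 nt unstimulated, 121.0 nt with BDNF and 112.9 nt with glu/gly, on 229 to 310 tags, and glu/gly moved the median of all genes by −4.7 nt.

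**Figure D2:**
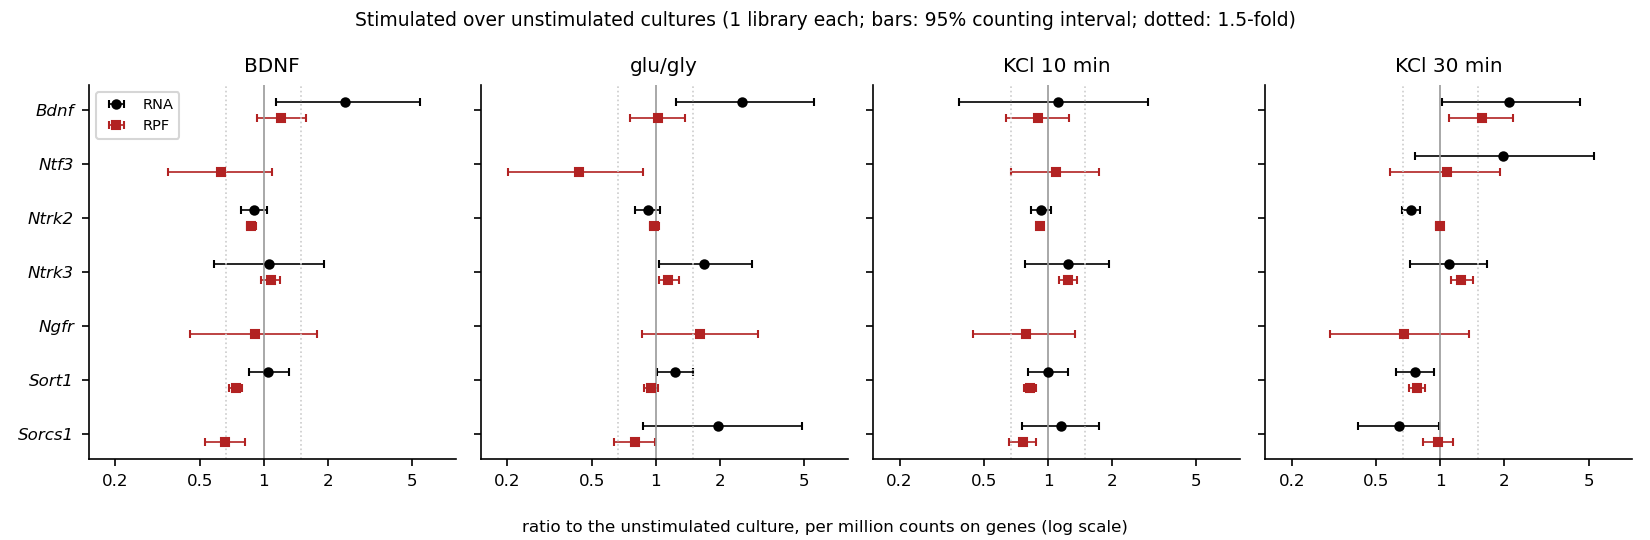
Ratio of stimulated to unstimulated culture for each gene and stimulus (log axis), from RNA-seq (circles) and RPFs (squares) in CPM, 1 library each, with 95% counting intervals; only ratios on at least 20 reads in both libraries together are drawn, and dotted lines mark 1.5-fold. *Bdnf* RNA lay above 2 with BDNF, glu/gly and 30 min of KCl, while *Ntrk2* stayed between the dotted lines throughout.

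*Ntrk2* was lower in the miRNA cultures than with GFP. RNA-seq gave 714 CPM in the GFP culture, 533 CPM for miR-1 and 479 CPM for miR-155. The ratios to GFP were 0.746 (0.647 to 0.860) for miR-1 and 0.671 (0.591 to 0.763) for miR-155, and TAIL-seq tags gave 0.731 (0.565 to 0.945) and 0.567 (0.432 to 0.742). The RNA-seq ratio for miR-155 lay just inside 1.5-fold, at 1.49 as GFP over miR-155. Astrocyte markers moved with *Ntrk2*: their sum was 1085 CPM in the GFP culture, 880 CPM for miR-1 and 742 CPM for miR-155. Their part in the result was not tested. The tail of *Ntrk2* was 121.8 nt without virus, 111.3 nt in the GFP culture (136 tags) and 102.7 nt in the miR-155 culture (95 tags), while the median of all genes differed by −8.4 nt between the former pair and by −0.9 nt between the latter. Over the 12 RNA-seq libraries, the 5 genes whose levels were most like *Ntrk2* were *Dhrs7* (r = 0.96), *Sdc4*, *Aqp4* and *Slc25a18* (r = 0.95 each) and *Cspg5* (r = 0.94), on log2(CPM + 1) among 9967 genes. *Aqp4* is 1 of the 5 astrocyte markers.

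The tissue with the least *Ntrk2* was embryonic hippocampus. It had 106 CPM against 435 CPM in adult hippocampus, a ratio of adult to embryo of 4.11 (3.80 to 4.44), and RPFs gave 5.40. Adult cortex, at 779 CPM, was 1.79-fold above adult hippocampus (1.68 to 1.91) and at 0.937 of the DIV14 culture (0.840 to 1.05). Astrocyte markers summed to 357 CPM in the embryo, 1208 CPM in adult hippocampus and 835 CPM in adult cortex, and their part was not tested. Log2 TE of *Ntrk2* ran only from 0.24 to 0.73 over the 10 samples with both assays, each time above the median of all genes.

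*Ntrk3*, which encodes the NT-3 receptor TrkC, had a high TE in culture. In the unstimulated DIV14 culture 25 RNA-seq reads stood against 780 RPFs, a log2 TE of 1.87 (1.30 to 2.45) at the 98.2 percentile of 5128 genes. It was 1.90 (1.32 to 2.47) with BDNF, 1.31 (0.89 to 1.73) with glu/gly and, under 10 RPM, 2.01 (1.35 to 2.67) with GFP. The DIV10 cultures lay at 1.06 to 1.26, those without KCl and after 30 min under 10 RPM, and lower values were found in embryonic hippocampus at 0.93 (0.83 to 1.03), adult cortex at 0.66 (0.43 to 0.90) and adult hippocampus at 0.34 (0.22 to 0.46). The plot of TE shows that no other gene of the 7 at or above 10 RPM stood as far above the median in the unstimulated, BDNF and glu/gly cultures. The reading frame counted for *Ntrk3* also holds reads of the kinase form, as described above.

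**Figure D3:**
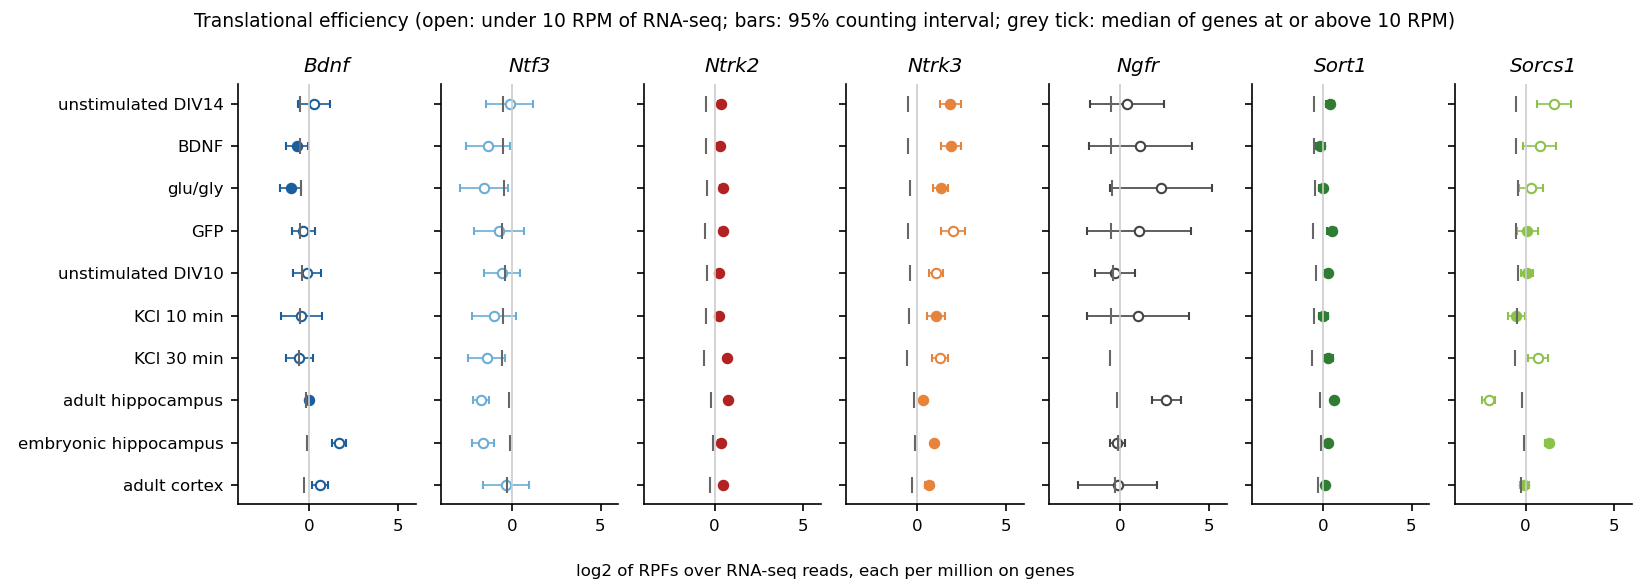
Log2 TE of each gene (RPFs over RNA-seq reads, both in CPM) in the 10 samples with both assays, 1 library per assay, with 95% counting intervals; open circles mark genes under 10 RPM in RNA-seq and grey ticks the median of all genes at or above it. *Ntrk3* reached 1.87 in unstimulated DIV14 culture, against a median of −0.51, and *Sorcs1* was at 1.31 in embryonic and −2.08 in adult hippocampus.

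*Ntrk3* was at 28.7, 53.4, 42.2 and 33.8 CPM in dark mice 1 to 4 and at 36.5, 40.2, 35.4 and 30.9 CPM in light mice 1 to 4. The light values lay within the range of the dark ones, with means of 39.5 ± 10.8 and 35.7 ± 3.84 CPM (SD, n = 4 each) and a log2 fold change of −0.18 (SE 0.19, adjusted p = 0.851, edgeR). Dark mouse 2, the deepest library, had the highest value, 53.4, and without it the log2 fold change was 0.07. With glu/gly *Ntrk3* had 50 RNA-seq reads against 25, a ratio of 1.69 (1.03 to 2.85), with RPFs at 1.14 (1.03 to 1.28) and tags at 1.21 (0.692 to 2.12). In the miRNA cultures RNA-seq gave 1.83 (1.09 to 3.20) for miR-1 and 1.87 (1.16 to 3.18) for miR-155 over GFP, against 19 reads in the GFP culture. The tags, 8 and 13 against 12, gave 0.582 (0.206 to 1.55) and 0.879 (0.370 to 2.11), in the other direction.

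Among tissues *Ntrk3* was highest in embryonic hippocampus, in contrast to *Ntrk2*. It had 1000 reads there and 724 in adult hippocampus, a ratio of adult to embryo of 0.765 (0.694 to 0.842), and 0.508 in RPFs. Adult cortex was 2.00-fold above the DIV14 culture in RNA-seq (1.31 to 3.18) and at 0.865 of it in RPFs.

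*Ngfr*, which encodes p75, was scarce throughout. RNA-seq found 0 to 7 reads in each culture, 13 in the adult and 61 in the embryonic hippocampus and 2 in the adult cortex. In the visual cortex dark mice 1 to 4 had 4, 6, 2 and 1 tags, and the light mice had none. Set against a floor of 3 tags over the light group, the 13 pooled tags of the dark mice give a ratio of 3.07. That ratio leaves out the counting error of the dark tags and the spread between mice, so it is not a lower limit. At this depth *Ngfr* did not enter the test with the other genes. Without a filter on low counts its p was 0.00400 and its adjusted p 0.178 (edgeR), which missed the threshold, and an exact two-sided permutation test gave p = 0.0286. No more can be said at so few tags.

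In the hippocampi *Ngfr* differed in opposite directions between the assays. Its RNA-seq reads were 13 in the adult and 61 in the embryo, a ratio of 0.225 (0.113 to 0.414). Its RPFs were 236 and 166, a ratio of 1.52 (1.24 to 1.87). Log2 TE was accordingly 2.61 (1.80 to 3.41) in the adult and −0.15 (−0.57 to 0.27) in the embryo, both under 10 RPM in RNA-seq. Adult cortex had 8 RPFs, or 0.0979 of adult hippocampus in CPM. In embryonic hippocampus, markers of dividing or progenitor cells summed to 1007 CPM, against 22.4 CPM in adult hippocampus, and their part was not tested. Genes most like *Ngfr* over the 12 libraries were *Rgmb* (r = 0.88), *Gatc*, *Zfp513* and *Gga2* (r = 0.87 each) and *Ccnd2* (r = 0.86), and this rests on few *Ngfr* reads: with a pseudocount of 0.1 only 3 of the 5 stayed in the list.

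*Sort1*, which encodes sortilin, ranked highest or next to highest of the 7 genes in each RNA-seq library and gave no detectable change after light. Its level was 395, 388, 415 and 422 CPM in dark mice 1 to 4 and 364, 428, 464 and 426 CPM in light mice 1 to 4. The light mice spread around the dark ones, and the log2 fold change was 0.09 (SE 0.09, adjusted p = 0.851, edgeR). The tail was 95 ± 10.4 nt in the dark and 99.0 ± 10.0 nt in the light (SD, n = 4 each), a difference of 4.0 nt (SE 6.7, adjusted p = 0.999, limma).

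**Figure D4:**
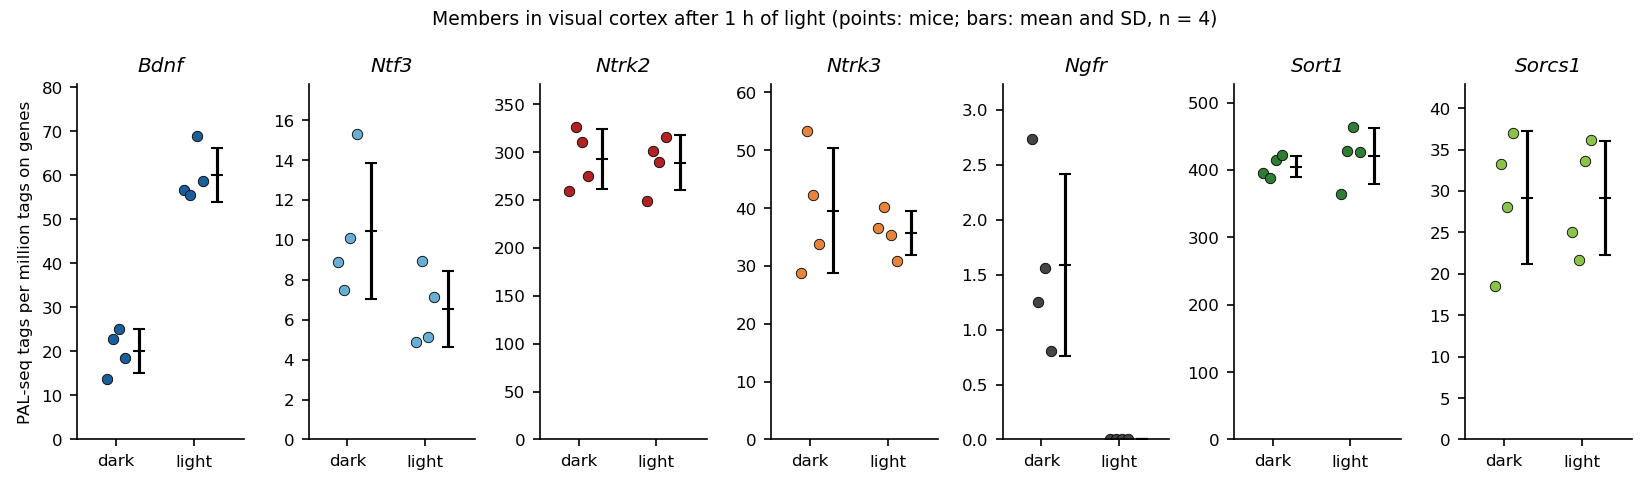
PAL-seq level in CPM (tags per 1000000 tags on genes) of each gene in the visual cortex of 4 dark and 4 light mice, each point a mouse, with mean and SD beside the points; each gene has its own vertical axis, starting at 0. *Bdnf* separated the groups with means of 20 and 60.0 CPM, *Ngfr* went from 1 to 6 tags to none, and the other 5 genes overlapped.

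**Figure D5:**
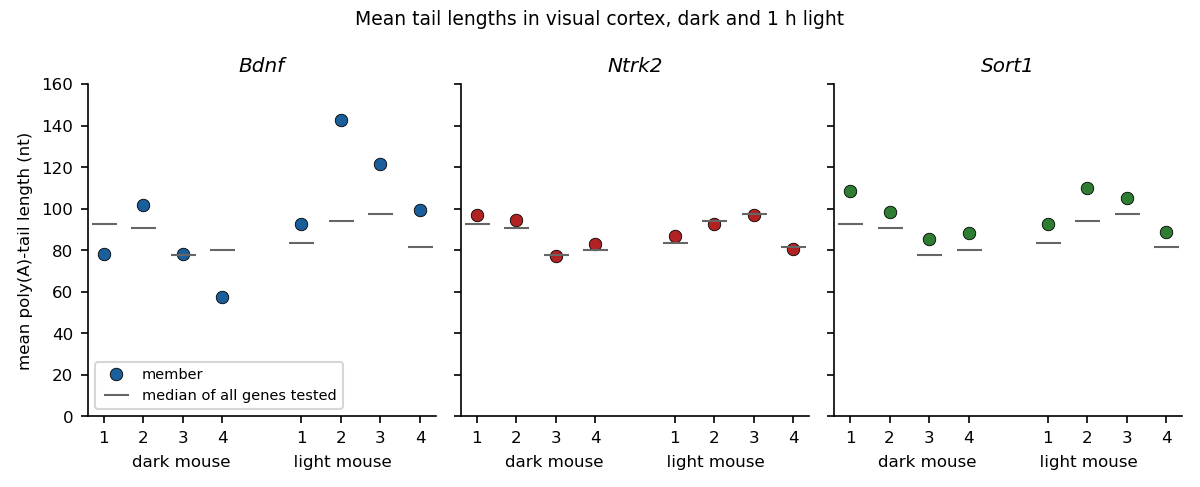
Mean poly(A)-tail length in nt of *Bdnf*, *Ntrk2* and *Sort1* in each of the 8 visual-cortex libraries, with a grey line at the median over all genes tested in that library. *Ntrk2* and *Sort1* followed the library medians, which ran from 77.5 to 97.5 nt, while *Bdnf* reached 142.5 nt in light mouse 2 and 57.2 nt in dark mouse 4.

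In the BDNF culture *Sort1* had fewer RPFs, but not less RNA, than in the unstimulated culture. RPFs were at 454 CPM unstimulated and 335 CPM with BDNF, a ratio of 0.739 (0.687 to 0.793), whereas RNA-seq gave 348 and 367 CPM, a ratio of 1.05 (0.851 to 1.31). Tags gave 1.15 (0.969 to 1.37). Log2 TE went from 0.38 to −0.13, a difference of −0.51 (−0.83 to −0.20), which lay under 1.5-fold. With glu/gly the difference was −0.38 (−0.68 to −0.09), and after KCl it was −0.28 (−0.59 to 0.04) at 10 min and 0.03 (−0.29 to 0.34) at 30 min. The difference between stimuli was not tested. Tails of *Sort1* were 121.9 nt unstimulated and 123.5 nt with BDNF.

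In the miR-155 culture *Sort1* stood at 265 CPM against 324 CPM in the GFP culture, a ratio of 0.820 (0.682 to 0.991), and tags gave 0.702 (0.494 to 0.994). With miR-1 the ratio was 1.08 (0.888 to 1.32). *Sort1* and *Ntrk2*, the genes with an 8-mer, and *Bdnf*, with its 7-mer-A1, were lower with miR-155 in both assays, and *Ntrk2* was lower with miR-1 as well. *Sorcs1*, also with a 7-mer-A1, was at 0.662 (0.417 to 1.08) in RNA-seq and 1.12 (0.409 to 3.20) in tags, and *Ntf3*, without a site, at 0.934 (0.345 to 3.16) and 0.541 (0.112 to 2.28). *Ntrk3*, also without a site, was at 1.87 in RNA-seq and 0.879 in tags. Whether the sites had a part in these ratios was not tested. Over 330 transcripts with the 8-mer the median log2 ratio of miR-155 to GFP was −0.26, and 70.3% were lower. Over 9540 without it the median was 0.01, and 48.9% were lower. The latter set still held shorter sites, such as that of *Bdnf*. The length of the 3′ UTRs was not taken into account, and each culture was 1 library.

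*Sort1* was higher in adult tissue. It had 608 CPM in adult and 172 CPM in embryonic hippocampus, a ratio of 3.53 (3.32 to 3.76), and RPFs gave 4.41. Adult cortex was 2.15-fold above the DIV14 culture (1.84 to 2.53) and 1.23-fold above adult hippocampus (1.15 to 1.31). For this gene and for the others, the poly(A)-selection of the hippocampi cannot be told apart from the tissue wherever levels or TE of a hippocampus are set beside adult cortex or a culture.

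*Sorcs1*, a sortilin relative that takes part in receptor trafficking, differed between adult cortex and adult hippocampus in both assays. RNA-seq gave 87.8 CPM in adult cortex and 20.3 CPM in adult hippocampus, a ratio of 4.32 (3.42 to 5.45). RPFs gave 83.6 and 4.80 CPM, a ratio of 17.4 (14.1 to 21.6). Adult and embryonic hippocampus had RNA levels at a ratio of 0.930 (0.741 to 1.17), while their RPFs were 104 and 1254, a ratio of 0.0889. Log2 TE was −2.08 (−2.44 to −1.72) in adult hippocampus, under 10 RPM, and 1.31 (1.07 to 1.54) in embryonic hippocampus. In adult cortex log2 TE was −0.07 (−0.33 to 0.19), so that *Sorcs1* lay on either side of the cortex value in the hippocampi.

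In the visual cortex *Sorcs1* was at 18.5, 33.2, 28.1 and 37.0 CPM in dark mice 1 to 4 and at 25.1, 21.7, 33.6 and 36.2 CPM in light mice 1 to 4. The groups overlapped, with a log2 fold change of 0.02 (SE 0.22, adjusted p = 0.991, edgeR). With BDNF its RPFs were 133 against 237, a ratio of 0.658 (0.528 to 0.817). RNA-seq, with 10 and 9 reads, could not show such a difference, and tags gave 0.780 (0.404 to 1.49). After 30 min of KCl its RNA-seq ratio was 0.641 (0.410 to 0.983), with tags at 0.545 (0.255 to 1.13) and RPFs near 1 (0.827 to 1.15).

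*Sorcs1* also differed between unstimulated cultures, on few reads. It had 9 reads at DIV14 and 74 at DIV10, a ratio of 0.285 (0.125 to 0.570), and RPFs gave 0.825. The GFP culture, with 25 reads, was 3.15-fold above the untransduced culture (1.42 to 7.68), but tags gave 0.892 (0.346 to 2.05). The miR-1 culture was at 0.481 of GFP (0.267 to 0.868), with tags, 2 against 8, at 0.218 (0.0226 to 1.09).

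These differences were read against the share of all genes that met the same rule. For single libraries, a gene was counted as different where the ratio was at least 1.5 in either direction, the interval left out 1 and both libraries together had at least 20 reads. In RNA-seq 1 of 4 genes with enough reads differed with BDNF (*Bdnf*, against 5.02% of all genes), 2 of 5 with glu/gly (*Bdnf* and *Ntrk3*, against 9.31%), 0 of 5 after 10 min of KCl (5.09%) and 2 of 6 after 30 min (*Bdnf* higher and *Sorcs1* lower, against 18.8%). In RPFs, where all 7 could be counted, *Sorcs1* was lower with BDNF (8.24% of all genes), *Ntf3* was lower with glu/gly (8.01%), none differed after 10 min of KCl (17.5%) and *Bdnf* was higher after 30 min (16.8%). The BDNF and glu/gly cultures share their control, as do both KCl cultures.

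For the 4 stimuli, TE from counts and tails gave no difference of that size for any of the genes with enough reads or tags. For TE, with 3, 3, 3 and 2 genes at or above 10 RPM in the order BDNF, glu/gly, 10 min and 30 min of KCl, the shares of all genes were 4.53%, 8.92%, 20.6% and 26.9%. The authors' deposited TE moved some past 1.5-fold: *Sort1* at −0.60 on the log2 scale with BDNF, *Ntrk3* at −0.87 and *Sort1* at −0.69 with glu/gly, *Sorcs1* at −0.95 and *Sort1* at −0.63 after 10 min of KCl, and *Ntrk2* at 0.89 after 30 min. The deposited RPM are scaled to a total of which genes held an unequal share. In RNA-seq it was 13.8% after 30 min of KCl and 19.5% in the unstimulated DIV10 culture. Such a scale moves all genes of a comparison by the same amount. Genes under the cutoff were not counted. Among them, log2 TE from counts differed with glu/gly by −1.32 (−2.39 to −0.25) for *Bdnf* and −1.31 (−2.48 to −0.14) for *Sorcs1*. These values rest on 11 and 9 RNA-seq reads in the control. For tails, counted as different from 10 nt, 3, 2, 2 and 2 genes had 50 tags, and the shares were 15.3%, 23.0%, 15.4% and 16.0%.

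In the lentivirus cultures 2 of 6 genes differed with miR-1 (*Ntrk3* higher and *Sorcs1* lower, against 9.48% of all genes) and 2 of 6 with miR-155 (*Ntrk3* higher and *Bdnf* lower, against 7.73%). With GFP over no virus it was 2 of 5 (*Bdnf* and *Sorcs1*, both higher, against 8.43%). By TAIL-seq tags *Bdnf* met the rule with the same sign in both comparisons. *Ntrk3* in both miRNA cultures and *Sorcs1* in the GFP culture were on the other side of 1 by tags, and *Sorcs1* in the miR-1 culture was on the same side with an interval that held 1.

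Between tissues differences were common among all genes. Adult and embryonic hippocampus differed in 5 of 7 (*Bdnf*, *Ntf3*, *Ntrk2* and *Sort1* higher and *Ngfr* lower in the adult), against 65.8% of all genes, and the median of all genes stood at −0.23 on the log2 scale. Adult cortex and adult hippocampus differed in 4 of 6 (35.5%), with *Ntrk2* and *Sorcs1* higher and *Bdnf* and *Ntf3* lower in cortex. The *Ntf3* ratio, 0.324 (0.115 to 0.736), rests on 6 reads in cortex, and in RPFs it was 0.866 (0.505 to 1.43). RPFs also brought *Ntrk2*, at 1.48 (1.44 to 1.52), and *Bdnf*, at 0.676, inside 1.5-fold. Adult cortex and the DIV14 culture differed in 3 of 5 (47.9%), with *Ntrk3*, *Sort1* and *Sorcs1* higher in cortex and the median of all genes again at −0.23. Only *Sorcs1*, of 5 genes with enough reads, differed between DIV14 and DIV10 (15.8%). In RNA-seq, oligodendrocyte markers summed to 1058 CPM in adult hippocampus, 1384 CPM in adult cortex and at most 13.7 CPM in embryonic hippocampus and the cultures, and *Mobp* had no RNA-seq read in any culture. Markers of dividing or progenitor cells moved in the other direction between the hippocampi, and the part of either list in these results was not tested.

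The 70 other genes of the pathway fall into 3 lists: 11 further ligands, processing enzymes and receptors, 46 Trk adaptors and kinases, and 13 co-receptors and adaptors of p75. After light 57 of them were tested, none rose, and 1 fell. This was *Pik3r1*, a regulatory subunit of PI3K, at 191 ± 30.1 CPM in the dark and 128 ± 21.5 in the light (SD, n = 4 each; log2 fold change −0.55, SE 0.13, adjusted p = 0.0195, edgeR). The convertase *Pcsk1* had too few tags to enter the test. It was at 2.07 ± 1.12 CPM in the dark and 9.37 ± 4.76 in the light (SD, n = 4 each), without overlap of the groups. Another gene left out of the test for few tags was lower in the light, also without overlap. The median log2 fold changes of the 3 lists were 0.14, 0.02 and 0.05, against 0.00 over all genes. Of 37 tails of these genes tested, none passed.

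In culture, the counts over the 70 in RNA-seq are given beside the share of all genes that met the rule. With BDNF 1 of 53 differed (5.02% of all genes), *Plcg1*, a phospholipase C that Trk receptors recruit, at 1.52 (1.02 to 2.29). With glu/gly it was 4 of 54 (9.31% of all genes), all higher: the Ras activator *Sos1* at 1.94, the sortilin relative *Sorl1* at 1.82, the kinase *Camk2a* at 1.78 and the ribosomal S6 kinase *Rps6ka2* at 1.53. After 10 min of KCl 1 was higher and 2 lower of 64 (5.09%), and after 30 min 2 were higher and 3 lower of 63 (18.8%). The former included *Pcsk1*, a convertase that cuts precursors of secreted proteins, at 1.88 (1.25 to 2.84).

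*Pcsk1* was also the gene of the lists whose RPFs were higher with both BDNF, at 1.60 (1.30 to 1.96), and glu/gly, at 1.59 (1.28 to 1.97), on 169 RPFs in their shared control. In RPFs 2 of 66 genes were higher and 1 lower with BDNF (8.24% of all genes), and 1 of 65 was higher and 3 lower with glu/gly (8.01%). After KCl 22 of 68 were lower and none higher at 10 min, and 14 of 68 lower and 3 higher at 30 min. Over all genes 17.5% and 16.8% met the rule, and most of them were lower too, 1686 against 525 higher at 10 min and 1496 against 608 at 30 min. The median RPF ratio of the 68 was 0.824 at 10 min and 0.849 at 30 min, against 0.965 and 0.980 over all genes. Those with the largest changes at both times included *Sh2b3*, an adaptor of receptor kinases, and *Irak1*, a kinase that acts with p75. *Prdm4*, a protein that binds p75, was another, and all were lower. *Sh2b3* rests on few RPFs, 3 at 10 min and 1 at 30 min against 22 in the control. *Irak1* had 15 and 9 against 87, and *Prdm4* 27 and 15 against 123. The convertase *Furin* was at 0.463 (0.320 to 0.653) after 30 min.

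In the lentivirus cultures 5 of 55 were higher and 3 lower with miR-1 (9.48% of all genes), none of 65 higher and 2 lower with miR-155 (7.73%), and 1 of 52 higher and 3 lower with GFP over no virus (8.43%). The 2 that were lower with miR-155 were *Irak1* at 0.354 (0.145 to 0.917) and the kinase *Rps6ka5* at 0.414 (0.281 to 0.619). *Rps6ka5* was 2.74-fold higher with GFP than without virus (1.52 to 5.14), as *Bdnf* was.

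Between the hippocampi the ligands, enzymes and receptors were higher in the adult in 7 of 9 with enough reads, with a median ratio of 6.86, while 24 of 46 adaptors and kinases were lower and 10 higher, with a median of 0.635. The median over all genes was 0.852. The convertases *Pcsk2* and *Pcsk1* were at 10.7 (9.42 to 12.3) and 7.89 (5.61 to 11.4). *Camk2a*, a kinase of mature excitatory neurons, was at 147 (126 to 171). In all, 20 of 68 were higher and 30 lower, where 65.8% of all genes differed. Adult cortex had 16 higher and 19 lower of 67 against adult hippocampus (35.5% of all genes), and 18 higher and 7 lower of 63 against the DIV14 culture (47.9%). From DIV10 to DIV14, 7 of 62 were higher and 4 lower (15.8%), with *Pcsk2* at 3.16 (2.53 to 3.95).

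Over the 12 RNA-seq libraries the genes most like *Bdnf* were *Ndst4* (r = 0.92), *Hdac11* and *Nefh* (r = 0.91 each), *Akap5* (r = 0.90) and *Dgkg* (r = 0.89). The libraries share controls and differ in tissue and RNA selection, and *Bdnf* had as few as 7 reads in them, so this is a description of these libraries. Among the 7 genes themselves, *Bdnf* had r = 0.62 with *Sort1*, 0.55 with *Ntf3* and 0.32 with *Ntrk2*. *Ntrk2* and *Ntrk3* ran in opposite directions, with r = −0.72.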

How the data were processed

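RNA-seq reads and RPFs were counted by the authors over the coding region of a chosen transcript, leaving out the initial 50 nt. The count table of each library was deposited with RPM values, which the authors scaled to a total that exceeds the reads on genes. Deposited log2 TE values compare RPFs with RNA-seq. Tail tables as deposited hold, for each gene, the number of tags (a count) and a tail length in nt, taken by the authors as a mean; the hippocampus values have the form of medians and were not compared. The submitters' processing notes name STAR 2.4.2, bedtools and mm10. A compiled table of light changes holds the authors' own comparisons and was not used.

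The 7 genes, the pathway lists and the tests were chosen with earlier results of these data known. Levels here are CPM, scaled to 1000000 counts on genes, and the log2 TE was recomputed from counts. Single libraries were compared by ratios with exact binomial (Clopper-Pearson) 95% intervals, and TE by Poisson errors, with tails at 50 tags or more. Visual cortex tag counts were tested with edgeR 4.0.16 (TMM, filterByExpr, quasi-likelihood) and tails with limma 3.58.1 in R 4.3.3, on a light term alone, adjusting p over all genes by Benjamini-Hochberg. The same-numbered mice share only a number. DESeq2 1.42.0 was an alternative. Scripts were tested on simulated data. Named besides the 7 were up to 5 pathway genes per comparison with the largest change, the 5 genes most like *Bdnf*, *Ntrk2* and *Ngfr*, and 4 immediate early genes; 1 pathway gene is not reported here. Positions and sequences are from RefSeq, GRCm38.p6. The 2 RPF libraries of the miRNA cultures carry labels that contradict each other and entered no comparison. The depth is given with the groups, and intervals cover counting error only.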

Additional observations from a re-analysis of the deposited data

How the results depend on the processing

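The rise of *Bdnf* after light kept its direction and passed the test under DESeq2, without a filter on low counts and without each mouse in turn (log2 fold change 1.46 to 1.70). Sample numbers did not pair the mice: the deviations of same-numbered dark and light mice correlated at 0.03, −0.20, −0.10 and −0.09 over 9554 genes, and no light sample matched its own number best. With a replicate block *Bdnf* was at 1.59 (adjusted p = 4.50e-05, edgeR), with 1 of the 7 genes passing as before. For 3 genes that did not pass, the sign depended on single mice, while *Ntf3* tags (−0.75 to −0.35), *Sort1* tags (0.04 to 0.15) and the *Sort1* tail (0.4 to 8.4 nt) kept theirs. Leaving out 1 mouse gave −0.13 to 0.15 for *Sorcs1* tags, −0.05 to 0.08 for *Ntrk2* tags, −0.30 to 0.07 for *Ntrk3* tags, and −2.3 to 4.3 nt for the tail of *Ntrk2*, which was −2.7 nt with each library centred on its median tail, an alternative chosen after seeing the data.

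Apart from the scale of the deposited values, the cause of the following differences was not tested. For ratios and TE, the share of all genes was not counted again under these settings, so the numbers of genes have no share beside them. With TAIL-seq tags instead of RNA-seq, the number of the 7 genes that differed was 0 with BDNF, 0 with glu/gly, 0 after 30 min of KCl, 0 with miR-1 over GFP and 1 with GFP over no virus. Among those past 1.5-fold, the ratios that turned were *Ntrk3* at 0.582 with miR-1 and 0.879 with miR-155, and *Sorcs1* at 0.892 with GFP over no virus. With size factors from the median of ratios, 1 gene differed in RNA after 30 min of KCl, 0 in RPFs with BDNF and 2 between DIV14 and DIV10. With RPFs instead of RNA-seq, 2 differed between adult cortex and adult hippocampus, 5 between adult cortex and DIV14 and 4 between DIV14 and DIV10, with *Ngfr* turned to 1.52 between the hippocampi and *Ntrk3* to 0.865 between adult cortex and DIV14. With the authors' deposited TE, 1 gene differed with BDNF, 2 with glu/gly, 2 after 10 min and 1 after 30 min of KCl. At 20 tags or more, 1 of 3 tails differed by 10 nt after 10 min of KCl. Over all 5282 genes with so many tags, 825 tails were longer and 786 shorter by that much. A pseudocount of 0.1 kept 3 of the 5 genes most like *Ngfr*. With the authors' RPM, *Bdnf* after 30 min of KCl was at 1.5 with an interval that held 1, while *Ntrk2* at 0.517 and *Sort1* at 0.541 passed the rule. Depth limits *Ntf3* and *Ngfr* throughout, and *Bdnf* and *Sorcs1* in the RNA-seq of the cultures.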

Other observations

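The 2 RPF libraries whose labels contradict each other, one part naming miR-1 and another miR-155, held 817114 and 6428048 RPFs on genes and were assigned to neither culture. In CPM per kb of counted reading frame, *Bdnf* was at 87.9 in the shallower and 43.0 in the deeper library, on 52 and 200 RPFs. *Ntrk2* was at 312 and 270, *Ntrk3* at 91.7 and 120, and *Sort1* had 320 and 2061 RPFs. *Sorcs1* was at 8.50 and 13.4, *Ntf3* at 16.0 and 8.33, and *Ngfr* at 2.98 and 2.65.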
